A study of Mus musculus with 12 samples.

Results

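Solute carriers were followed across 2 sorted fractions of mouse B16 melanoma and across 2 sublines of that tumor. Members were all array probes whose gene symbol begins with Slc and a digit, leaving out the mitochondrial Slc25a family and the carriers Slc2a1, Slc2a3 and Slc4a1. The rule found 187 of 25697 probes and 144 of 8987 named genes, in 42 families. Of these, 119 members in 39 families were detected on enough arrays to be tested among 7894 genes. The other 25 were detected on 1 array at most and were not tested. They include Slc24a5, the potassium-dependent exchanger of the melanosome, which was detected on no array, and Slc3a2, the heavy chain that pairs with several amino acid exchangers.

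Solute carriers are membrane proteins that move amino acids, sugars, lipids, vitamins, nucleosides, metals and inorganic ions across the plasma membrane and the membranes of organelles, by facilitated diffusion or coupled to a gradient of another ion. They are numbered by sequence family, and most families carry a characteristic class of cargo. In melanocytes some of them, such as Slc45a2, set the ion content of the melanosome, and phagocytes carry others, such as Slc11a1, in phagosome and lysosome membranes.

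B16 cells, a C57BL/6 melanoma line, carried the red fluorescent protein tdTomato. Mice were inoculated under the skin of the right flank with 25000 cells. Each replicate was a pool of tumors from 3 mice, taken at 100 to 400 mm3, digested and sorted into tdTomato-positive cells, called tumor here, and tdTomato-negative cells, called microenvironment. F4 cells had acquired resistance to checkpoint inhibitors and F0 cells had not been exposed to them. There were 4 F4 tumor arrays (A to D), 2 F0 tumor arrays (B2 and B3), 4 F4 microenvironment arrays (A to D) and 2 F0 microenvironment arrays (B2 and B3), so that each pool gave an array in both fractions. The labels conflict on treatment: one field puts the F0 tumors under no checkpoint inhibitor, and the protocol gives mice of both lines the same 3 injections of checkpoint inhibitors along with Fvax, B16 cells that make Flt3 ligand. Tumor and microenvironment RNA lay on separate chips, so an effect of the chip cannot be told apart from one of the fraction. The place on the chip likewise cannot be told apart from the line.

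Values are normalized log2 signals, given in the order of the replicates, and a difference of 1 is a doubling. A member was called where limma's p, adjusted over all 7894 genes by the Benjamini-Hochberg method, lay below 0.05. A member was detected on an array where its detection p was below 0.01. Where only some arrays of a group detected a member, the size of its difference rests in part on values not well above background. Mean raw intensities were 250 to 519 on tumor arrays, against 156 to 259 on microenvironment arrays, which were dimmer. The lowest detected log2 signal was 5.03 to 5.44 on tumor arrays and 5.30 to 6.39 on microenvironment arrays. Between 89 and 106 of the 119 tested members were detected on an F4 tumor array and 97 or 101 on an F0 tumor array. Between 70 and 89 were detected on an F4 microenvironment array and 68 or 78 on an F0 microenvironment array.

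The melanocyte markers averaged 9.27 to 10.30 on F4 tumor arrays and 10.05 to 10.18 on F0 tumor arrays. They averaged 7.78 to 9.93 in the F4 microenvironment and 8.52 to 9.85 in the F0 microenvironment. All 5 measured leukocyte markers were called lower in F4 tumor cells, and 1 of 10 melanocyte markers was called higher. Melanocyte RNA was measured in both fractions: Pmel averaged 14.04 in F4 tumor cells and 13.12 in the F4 microenvironment (adjusted p = 0.0802). In all, 3 arrays stood apart from their groups. F4 tumor array A had a leukocyte marker mean of 11.23, where arrays B to D had 6.54 to 8.57, and a mean raw intensity of 250. F4 microenvironment array D and F0 microenvironment array B3 had melanocyte marker means of 9.93 and 9.85, against 7.78 to 8.80 on the other microenvironment arrays. In these bulk samples fewer cells of a type and less RNA per cell cannot be told apart.

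**Figure D1:**
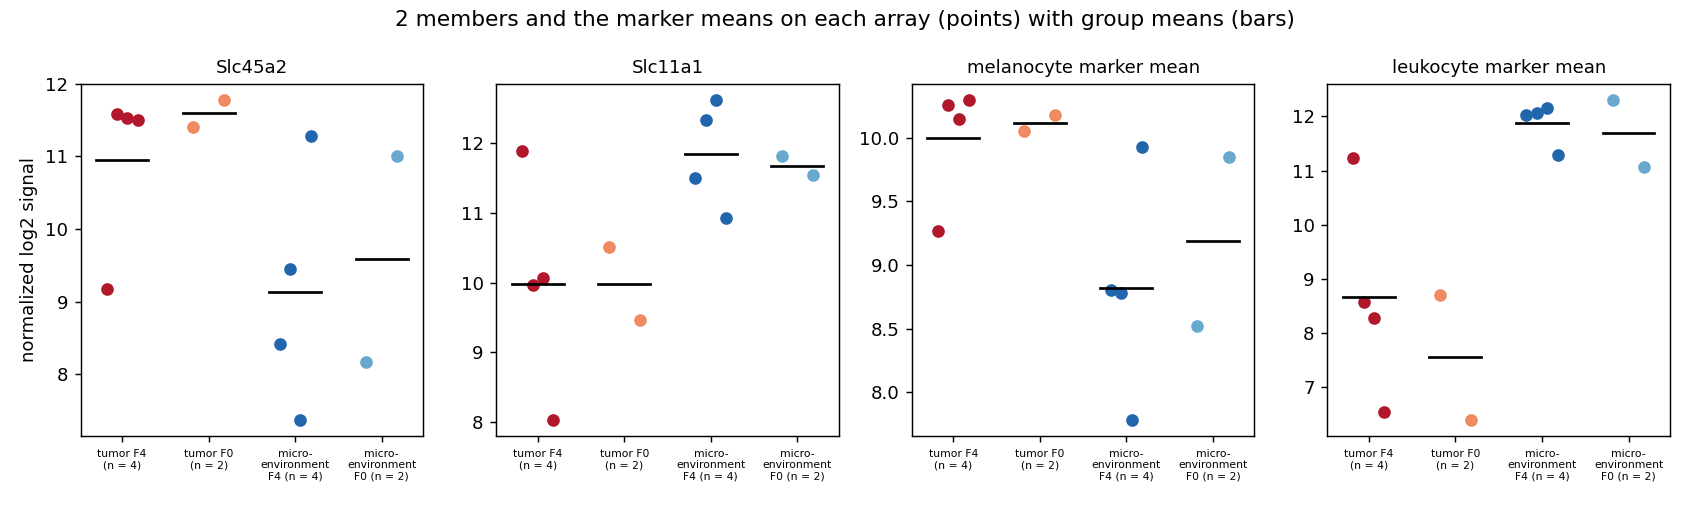
Normalized log2 signal (y axis) on each array (points) with group means (bars), in tumor F4, tumor F0, microenvironment F4 and microenvironment F0, for Slc45a2, Slc11a1, the melanocyte marker mean and the leukocyte marker mean. F4 tumor array A is the lowest tumor array for Slc45a2 (9.17) and the highest for the leukocyte marker mean (11.23).

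Tumor cells and microenvironment of F4 tumors differed in 31 of 119 members, with 17 called higher in tumor cells and 14 lower. These carriers covered most kinds of cargo: the amino acid carriers Slc6a17 and Slc1a4, the choline-like carrier Slc44a3, the fatty acid carrier Slc27a1 and the folate carrier Slc19a1 were higher in tumor cells, and the calcium exchanger Slc24a3, the monocarboxylate family member Slc16a9 and the riboflavin carrier Slc52a3 were lower. Members were called at close to the rate of all genes: 14.3% higher and 11.8% lower among members, against 13.3% higher and 11.2% lower among all genes tested. Their median difference was 0.24, against 0.20 over all genes. Under median scaling, used instead of quantile normalization, the split was 77 higher and 6 lower, so 92.8% of the calls were higher, against 54.8% here, and the median of all genes stood at 1.22. Of all genes, 67.8% were then called higher and 5.05% lower. Over all genes the called share was 37.8% without F4 tumor array A and 1.08% without array C, against 24.6%. Member calls likewise depended on single arrays. Without F4 tumor array A they came to 36 higher and 21 lower, without F4 microenvironment array D to 27 and 22, and without the 3 arrays that stand apart to 41 and 26. Since those 3 were chosen by markers of the fractions, the higher counts without them are a description only. Without F4 tumor arrays B, C or D in turn they came to 2 and 1, 0 and 1, and 0 and 1. Without F4 microenvironment arrays A, B or C they came to 7 and 7, 4 and 6, and 2 and 1, and without either F0 tumor array to 11 and 12.

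**Figure D2:**
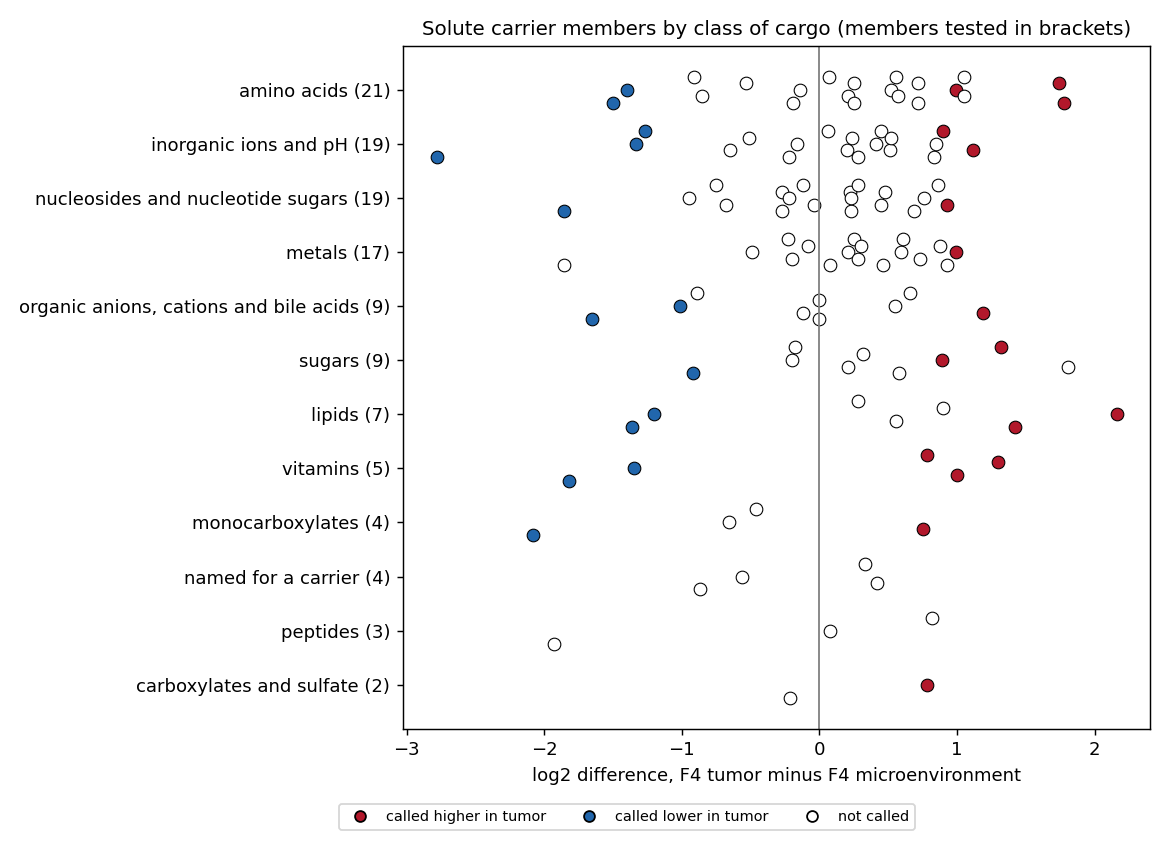
Log2 difference, F4 tumor minus F4 microenvironment (x axis), of each of the 119 tested members (points), in rows by class of cargo with the number tested in brackets; red points were called higher in tumor, blue points lower and white points not called. Classes follow family number, so the multivitamin carrier Slc5a6 lies in the sugar row. The vitamin row is called throughout, with 3 higher and 2 lower, and the metal row holds 1 call among 17 members, where 24.6% of all genes were called.

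The amino acid class, set by family number, was the largest, with 3 of 21 called higher and 2 lower. Slc6a17, which loads neutral amino acids into synaptic vesicles, had 6.12, 7.11, 7.03 and 7.60 in F4 tumor cells, against 5.40, 4.78, 4.56 and 5.98 in the F4 microenvironment. Every tumor array lay above every microenvironment array, and it was detected on 4 of 4 tumor arrays and 1 of 4 microenvironment arrays. The difference was 1.78 ± 0.36 (SE, adjusted p = 0.0157). Slc1a4, an exchanger of alanine, serine and cysteine, had 5.72, 6.95, 6.95 and 7.42 in F4 tumor cells, against 5.13, 4.67, 4.39 and 5.87 in the microenvironment (difference 1.74 ± 0.39 SE, adjusted p = 0.0196). Its groups overlapped, since tumor array A lay below microenvironment array D. Microenvironment arrays A to C lay below their lowest detected signals (6.39, 5.30 and 6.15), so the size of its difference rests on values not well above background. The creatine carrier Slc6a8 was called only just, with 8.87 ± 0.37 in F4 tumor cells and 7.89 ± 0.65 in the F4 microenvironment (SD, n = 4 each, adjusted p = 0.0497).

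The lysosomal arginine-sensing carrier Slc38a9 was called lower, with 5.46, 4.84, 4.72 and 4.93 in F4 tumor cells, against 7.39, 6.11, 6.74 and 5.73 in the microenvironment. It was detected on 1 of 4 tumor arrays and on 4 of 4 microenvironment arrays, and its difference was -1.50 ± 0.34 (SE, adjusted p = 0.0194). Slc66a2, of the PQ-loop family and in this class only by its family number, differed by -1.40 (adjusted p = 0.0278). Among the rest of the class, the leucine exchanger Slc7a5 was bright in both fractions and was not called (adjusted p = 0.125). It had 11.23 ± 0.61 in F4 tumor cells and 10.51 ± 0.54 in the F4 microenvironment (SD, n = 4 each). The cystine exchanger Slc7a11 differed by -0.19 (adjusted p = 0.736) and the glutamine carrier Slc1a5, detected on 1 of 4 F4 tumor arrays and on no microenvironment array, was not called (adjusted p = 0.321). Slc38a2, a sodium-coupled carrier of small neutral amino acids, differed by -0.91 (adjusted p = 0.0603, and 0.0285 with the pool as replicate block). The neutral amino acid exchanger Slc7a8 differed by 1.05 (adjusted p = 0.0978, and 0.0445 with the block). The taurine carrier Slc6a6 lay at 11.56 to 12.02 in F4 tumor cells and 11.64 to 11.96 in the F4 microenvironment, and the groups overlapped (0.07, adjusted p = 0.765).

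Among 7 lipid carriers, 2 were called higher and 2 lower. Slc44a3, of the choline transporter-like family, had 6.95, 8.06, 7.94 and 8.37 in F4 tumor cells, against 6.12, 4.75, 4.43 and 7.37 in the F4 microenvironment (2.16 ± 0.69 SE, adjusted p = 0.044). Microenvironment array D lay above tumor array A, and array D was the only F4 microenvironment array on which the gene was detected, so the difference rests on 3 values not well above background. Slc44a2, of the same family, went the other way, with 8.84 ± 0.44 in F4 tumor cells and 10.04 ± 0.55 in the F4 microenvironment (SD, n = 4 each, difference -1.20, adjusted p = 0.0316), a direction that turned under median scaling (0.25).

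The 2 called fatty acid carriers were also opposed. Slc27a1 had 7.50, 7.12, 7.93 and 7.47 in F4 tumor cells, against 6.01, 5.98, 5.65 and 6.67 in the microenvironment, with no overlap (1.42 ± 0.28 SE, adjusted p = 0.0153). Slc27a3 had 5.13, 5.08, 4.60 and 5.21 in F4 tumor cells, against 5.56, 6.91, 7.10 and 5.92 in the microenvironment (-1.36 ± 0.35 SE, adjusted p = 0.0261). Slc27a1 on F4 microenvironment arrays A and C, and Slc27a3 on F4 tumor arrays A, C and D, lay below the lowest detected signals. The sizes of these 2 differences rest in part on values not well above background. The third, Slc27a4, was not called (adjusted p = 0.0564), and was detected on no microenvironment array.

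All 5 tested members of the vitamin class were called, 3 higher and 2 lower, where 24.6% of all genes were called. Classes follow family number, which put Slc46a3 here and the multivitamin carrier Slc5a6 in the sugar class, so the full count depends on that rule. Slc5a6 was not called (0.32, adjusted p = 0.486). The reduced folate carrier Slc19a1 had 7.75, 8.40, 8.58 and 8.41 in F4 tumor cells, against 7.07, 7.15, 6.20 and 7.52 in the microenvironment, with no overlap (1.30 ± 0.32 SE, adjusted p = 0.0224). The thiamine carrier Slc19a2 averaged 7.21 ± 0.50 in F4 tumor cells and 6.21 ± 0.40 in the F4 microenvironment (SD, n = 4 each, adjusted p = 0.0441). On F4 microenvironment arrays A and C it lay below the lowest detected signal (5.85 against 6.39, and 5.98 against 6.15). Slc46a1, the proton-coupled folate carrier, averaged 5.12 ± 0.47 in F4 tumor cells and 4.34 ± 0.08 in the F4 microenvironment (adjusted p = 0.0401). It was detected on no microenvironment array and its bound lay under 1, so no fold is given.

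The riboflavin carrier Slc52a3 had 5.43, 4.93, 4.85 and 4.87 in F4 tumor cells and was detected on none of those arrays. In the F4 microenvironment it had 7.29, 7.23, 7.02 and 5.84 and was detected on 4 of 4. It was therefore at least 3.07-fold lower in F4 tumor cells (adjusted p = 0.0161). Such a bound compares the brighter group's mean with the lowest signal that counted as detected in the dimmer one. It describes the measured means and carries no sampling error, so it is not an established minimum change. Slc46a3, a lysosomal member of the Slc46a1 family, averaged 7.09 ± 0.34 in F4 tumor cells and 8.44 ± 0.55 in the F4 microenvironment (SD, n = 4 each, difference -1.35, adjusted p = 0.0166), and at 0.03 under median scaling the sign turned.

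Of 19 members in the class of inorganic ions and protons, 2 were called higher and 3 lower. By family number this class also takes in family 17, with the nucleotide carrier Slc17a9, where none was called. All 3 tested sodium-calcium exchangers were called lower in tumor cells. Slc24a3, a potassium-dependent one, had 6.94, 5.0, 4.53 and 4.37 in F4 tumor cells, against 8.47, 7.72, 9.08 and 6.69 in the F4 microenvironment. Its fitted difference was -2.78 ± 0.59 (SE, adjusted p = 0.0173), with tumor arrays B to D not well above background. Tumor array A, the only tumor array on which it was detected, overlapped microenvironment array D. Slc8a1, of the plasma membrane, differed by -1.33 (adjusted p = 0.0441) and the mitochondrial Slc8b1 by -1.27 (adjusted p = 0.0451, but 0.14 under median scaling).

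The anion exchanger Slc4a2 was called higher, with 9.79 to 10.01 in F4 tumor cells, against 9.63, 8.63, 8.61 and 9.18 in the F4 microenvironment (0.90 ± 0.24 SE, adjusted p = 0.0281). Slc9b2, a sodium-proton exchanger, averaged 5.65 ± 0.28 in F4 tumor cells and 4.53 ± 0.17 in the F4 microenvironment (SD, n = 4 each, adjusted p = 0.0157). It was detected on 4 of 4 tumor arrays and on no microenvironment array, and its bound lay under 1. None of the 5 chloride cotransporters of family 12 was called.

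Metal carriers gave 1 call among 17 members. It was Slc48a1, a heme transporter of the lysosome, with 10.52, 10.87, 10.78 and 10.81 in F4 tumor cells, against 10.14, 9.55, 8.90 and 10.43 in the F4 microenvironment (0.99 ± 0.32 SE, adjusted p = 0.046). None of 7 zinc carriers of family 39 and none of 4 of family 30 was called. The copper importer Slc31a1 (0.88, adjusted p = 0.0593) and the iron importer Slc11a2 (0.93, adjusted p = 0.0619) passed with the replicate block (adjusted p = 0.0381 and 0.0395). Slc11a1, the phagosomal metal transporter of macrophages, had 11.88, 9.96, 10.07 and 8.03 in F4 tumor cells, against 11.50, 12.33, 12.62 and 10.92 in the F4 microenvironment (-1.86 ± 0.68 SE, adjusted p = 0.0614, and 0.0303 with the block). Its highest tumor value was on array A, which also had the highest leukocyte and macrophage marker means among tumor arrays (11.23 and 10.34). Without the 3 arrays that stand apart its difference was -2.80. Those arrays were singled out by melanocyte and leukocyte markers, and Slc11a1 is a macrophage gene. A wider difference without them follows from the choice and is no support for it. The part of leukocytes in this result was not tested.

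The sugar class, which holds the multivitamin carrier Slc5a6, had 2 of 9 called higher and 1 lower. Both members of family 37, exchangers of sugar phosphates, were called higher: Slc37a1 with 5.72, 6.62, 6.77 and 6.93 in F4 tumor cells, against 5.08, 4.80, 4.61 and 6.28 in the microenvironment (1.32 ± 0.38 SE, adjusted p = 0.0343), with tumor array A below microenvironment array D. For Slc37a1, F4 microenvironment arrays A to C lay below their lowest detected signals. The size of its difference rests in part on values not well above background. Slc37a3 averaged 5.61 ± 0.48 in F4 tumor cells and 4.72 ± 0.30 in the F4 microenvironment (adjusted p = 0.0427). It was detected on no microenvironment array and its bound lay under 1. Slc45a4, a putative sugar carrier, differed by -0.92 (adjusted p = 0.0329), and by 0.29 under median scaling.

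Slc45a2, the melanosomal carrier that is needed for pigmentation, had 9.17, 11.58, 11.53 and 11.50 in F4 tumor cells, against 8.42, 9.45, 7.37 and 11.28 in the F4 microenvironment. Its difference of 1.81 ± 0.87 (SE) did not pass (adjusted p = 0.124). Tumor array A and microenvironment array D lay nearer to the other fraction, as did their melanocyte marker means of 9.27 and 9.93. Without the 3 arrays that stand apart the difference was 3.12 (adjusted p = 0.00105). Those arrays were singled out by melanocyte and leukocyte markers, and Slc45a2 is a melanocyte gene, so a wider difference without them follows from the choice and is no support for it. The other 3 kept probes of the gene differed by 1.28, 1.86 and 1.88.

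The remaining classes gave a few calls each. Of 9 carriers of organic anions, cations and bile acids, 1 was called higher and 2 lower. Slc51a, a subunit of the bile acid exporter, averaged 5.77 ± 0.21 in F4 tumor cells and 4.58 ± 0.28 in the F4 microenvironment (SD, n = 4 each, adjusted p = 0.0281), and was detected on 4 of 4 tumor arrays and on no microenvironment array, with a bound under 1. Slc22a13, which carries urate and nicotinate, had 5.48, 4.48, 4.28 and 4.47 in F4 tumor cells, against 6.62, 6.09, 6.44 and 6.15 in the F4 microenvironment. It was detected on 1 of 4 F4 tumor arrays, and arrays B to D lay below their lowest detected signals (5.03, 5.10 and 5.33). The size of its difference thus rests in part on values not well above background. Its groups did not overlap, its difference was -1.65 ± 0.26 (SE, adjusted p = 0.00805), and it was called in 21 of 21 alternatives. Leaving out each of the 12 arrays in turn kept its call every time, and each other member called in F4 kept its call in 4 to 10 of the 12. Slc22a7, an organic anion carrier of the same family, differed by -1.01 (adjusted p = 0.0324), and by 0.16 under median scaling.

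Of 19 carriers of nucleosides and nucleotide sugars, 1 was called in each direction. Slc35a2, which brings UDP-galactose into the Golgi, had 7.88, 7.99, 8.08 and 8.0 in F4 tumor cells, against 7.11, 6.86, 6.94 and 7.33 in the microenvironment (0.93 ± 0.25 SE, adjusted p = 0.0276). Slc35f3, of the same family, had 5.14, 4.38, 4.26 and 4.33 in F4 tumor cells, where it was detected on no array. In the microenvironment it had 6.92, 6.08, 7.19 and 5.38, and it was at least 2.24-fold lower in tumor cells (adjusted p = 0.017).

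Of 4 monocarboxylate carriers, Slc16a9 had 7.17, 4.85, 4.73 and 4.54 in F4 tumor cells, against 8.13, 7.26, 8.05 and 6.18 in the F4 microenvironment (-2.08 ± 0.58 SE, adjusted p = 0.0316). Array A, again the only F4 tumor array on which it was detected, lay above microenvironment array D. The lactate exporter Slc16a3 averaged 5.27 ± 0.36 in F4 tumor cells and 4.52 ± 0.20 in the F4 microenvironment (SD, n = 4 each, adjusted p = 0.0314), was detected on no microenvironment array and had a bound under 1. The sulfate carrier Slc13a4 averaged 5.19 ± 0.35 in F4 tumor cells and 4.41 ± 0.14 in the F4 microenvironment (adjusted p = 0.038), likewise with no detection in the microenvironment and a bound under 1. None of 3 peptide carriers was called. Slc15a3, a lysosomal carrier of histidine and peptides in immune cells, had 9.90, 7.19, 7.58 and 5.83 in F4 tumor cells. In the F4 microenvironment it had 8.45, 10.21, 10.61 and 8.93 (-1.93, adjusted p = 0.0903). Without the 3 arrays that stand apart its difference was -2.89. Those arrays were chosen by melanocyte and leukocyte markers, so this wider difference is a description only. The 4 genes named for a carrier without being one (Slc4a1ap, Slc7a6os, Slc9a3r1 and Slc9a3r2) gave no call.

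**Figure D3:**
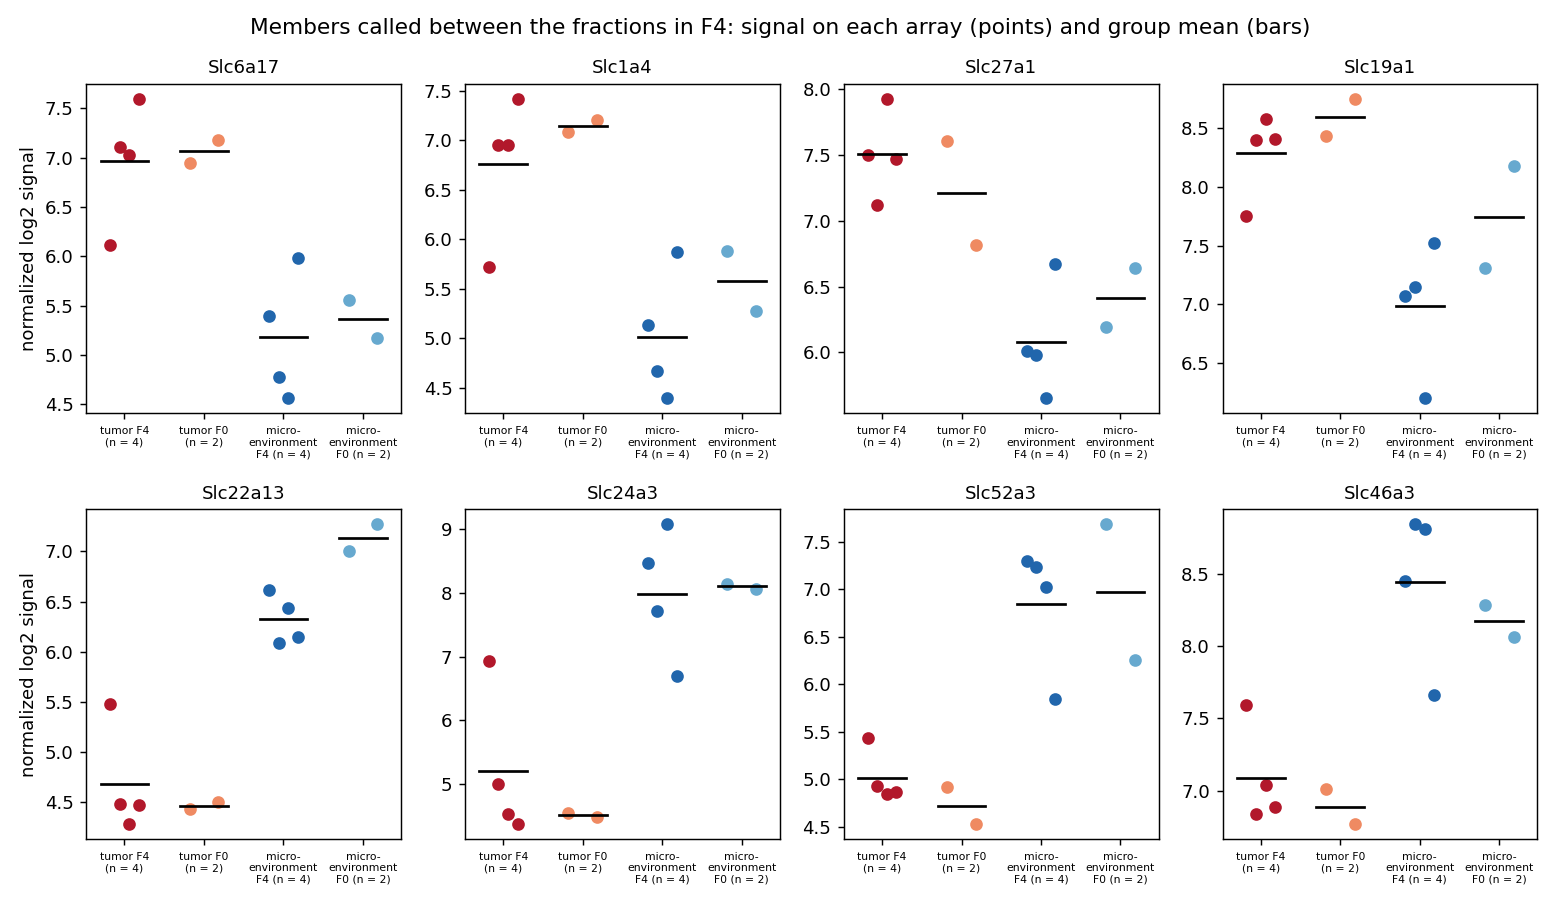
Normalized log2 signal (y axis) of 8 members called between the fractions in F4 on each array (points) with group means (bars), in tumor F4, tumor F0, microenvironment F4 and microenvironment F0. Slc22a13 lies at 4.28 to 5.48 on the F4 tumor arrays and at 6.09 to 6.62 on the F4 microenvironment arrays; points below the lowest detected signal of their array are not well above background.

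Further members, taken for their known roles or as the smallest p of their family, did not pass in F4. The equilibrative nucleoside carriers Slc29a1 (-0.27, adjusted p = 0.442) and Slc29a3 of the lysosome (-0.95, adjusted p = 0.0704) were not called, nor were the hexose carriers Slc2a6 (-0.20) and Slc2a8 (0.21). The lysosomal peptide carrier Slc15a4 stood at 0.82 (adjusted p = 0.0801), the chloride cotransporter Slc12a7 at 0.83 (adjusted p = 0.089), the Golgi zinc carrier Slc30a5 at 0.59 (adjusted p = 0.249), the cationic amino acid exchanger Slc7a7 at -0.14 (adjusted p = 0.773), and Slc16a6 at -0.66 (adjusted p = 0.306). Without the 3 arrays that stand apart the differences were 1.35 for Slc12a7, 1.17 for Slc15a4, 1.15 for Slc30a5 and -1.44 for Slc29a3. Since those arrays were chosen by markers of the fractions, these wider differences are a description only. Fitted probe by probe, a dimmer probe was called where the brightest was not for Slc4a3 (0.96, adjusted p = 0.0198, against 0.06), Slc4a8 (1.32, adjusted p = 0.036, against 0.45), Slc9a8 (0.82, adjusted p = 0.0429, against 0.20) and Slc38a2 (-0.93, adjusted p = 0.0486, against -0.91 with adjusted p = 0.0622).

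Across both fractions, 50 members were detected on all 12 arrays and 21 on tumor arrays alone, among them 6 of the 17 called higher. 4 were detected on microenvironment arrays alone (Slc10a6, Slc26a4, Slc35f3 and Slc52a3). The difference in brightness between the fractions runs in the same direction as these counts, and its part in them was not tested. Other transporter families can be set beside the 13.3% of all genes called higher and 11.2% called lower: 5 of 17 ABC transporters were called higher and none lower, 2 of 13 P-type pumps higher and 3 lower, none of 4 organic anion polypeptides (Slco) higher and 2 lower, none of 4 aquaporins higher and 1 lower, and none of 10 Mfsd carriers in either direction.

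Promoter sequence was examined for the called members. RefSeq promoters on GRCm38.p6, from 250 bases before to 50 after a gene's start, were found for 24 of the 31. Both strands were searched for CACGTG and CATGTG, forms of the E-box and M-box, for GAGGAA, an ETS-type core, and for TGAGTCA, an AP-1 site. Among 15 members called higher with a promoter, CACGTG was in 2 (13.3%), CATGTG in 1 (6.67%), GAGGAA in 1 and TGAGTCA in none. In 9 called lower these were 0, 2 (22.2%), 1 (11.1%) and 0. All 32851 promoters held them at 7.15%, 14.2%, 28.3% and 5.2%. The first start in the table was used where a gene had several.

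The promoters that hold CACGTG or CATGTG, and that of Slc22a13, the member called in both lines, are given 5′ to 3′ in the direction of the gene, with any of the motifs in capitals. Those of Slc6a17 at chr3:107500691-107500990 (minus strand), Slc51a at chr16:32487830-32488129 (minus strand) and Slc37a3 at chr6:39377658-39377957 (minus strand) belong to members higher in F4 tumor cells, and those of Slc16a9 at chr10:70245026-70245325 (plus strand), Slc8a1 at chr17:81738338-81738637 (minus strand) and Slc22a13 at chr9:119209056-119209355 (minus strand) to members lower there. A match is a run of letters and not a shown site.
Slc6a17: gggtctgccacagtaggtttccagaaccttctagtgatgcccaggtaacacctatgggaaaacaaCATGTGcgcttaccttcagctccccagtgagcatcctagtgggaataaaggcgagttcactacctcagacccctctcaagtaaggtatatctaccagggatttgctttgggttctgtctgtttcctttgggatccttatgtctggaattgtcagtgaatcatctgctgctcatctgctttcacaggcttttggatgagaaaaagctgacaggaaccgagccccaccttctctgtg
Slc51a: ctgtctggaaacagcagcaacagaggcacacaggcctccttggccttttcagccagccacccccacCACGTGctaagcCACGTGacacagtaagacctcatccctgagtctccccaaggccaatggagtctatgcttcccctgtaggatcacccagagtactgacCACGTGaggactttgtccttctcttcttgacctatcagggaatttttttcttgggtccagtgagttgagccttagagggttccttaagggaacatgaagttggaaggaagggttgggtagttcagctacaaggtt
Slc37a3: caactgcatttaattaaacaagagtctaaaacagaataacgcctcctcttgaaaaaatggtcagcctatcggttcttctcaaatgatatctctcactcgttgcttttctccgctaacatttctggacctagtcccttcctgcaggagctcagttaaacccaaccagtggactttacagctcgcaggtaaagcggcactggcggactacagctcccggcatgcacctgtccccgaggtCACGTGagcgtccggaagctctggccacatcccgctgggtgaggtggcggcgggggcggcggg
Slc16a9: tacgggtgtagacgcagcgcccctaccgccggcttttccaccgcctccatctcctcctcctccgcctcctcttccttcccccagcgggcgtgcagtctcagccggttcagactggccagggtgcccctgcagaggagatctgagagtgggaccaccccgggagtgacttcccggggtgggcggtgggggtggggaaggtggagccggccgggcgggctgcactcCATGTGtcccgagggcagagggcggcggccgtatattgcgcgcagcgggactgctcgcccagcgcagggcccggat
Slc8a1: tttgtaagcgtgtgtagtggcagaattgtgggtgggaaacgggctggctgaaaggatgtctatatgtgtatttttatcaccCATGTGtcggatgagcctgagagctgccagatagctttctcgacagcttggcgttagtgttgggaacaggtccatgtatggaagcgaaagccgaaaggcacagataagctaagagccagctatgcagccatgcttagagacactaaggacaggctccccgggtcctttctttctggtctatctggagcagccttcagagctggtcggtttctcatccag
Slc22a13: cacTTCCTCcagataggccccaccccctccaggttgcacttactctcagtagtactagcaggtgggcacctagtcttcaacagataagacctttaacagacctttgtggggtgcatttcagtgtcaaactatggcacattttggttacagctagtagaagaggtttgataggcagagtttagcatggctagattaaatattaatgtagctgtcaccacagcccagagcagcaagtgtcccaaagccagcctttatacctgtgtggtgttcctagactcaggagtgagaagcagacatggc

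In F0, with 2 arrays a group, 1 of 119 members was called between the fractions, none higher and Slc22a13 lower. Over all genes 0.266% were called higher and 0.646% lower. Slc22a13 had 4.43 and 4.50 in F0 tumor cells, against 7.0 and 7.27 in the F0 microenvironment (adjusted p = 0.0116). Neither tumor array detected it and both microenvironment arrays did, so that it was at least 3.92-fold lower in F0 tumor cells. It lost its call without F0 tumor array B2, F0 tumor array B3 or F0 microenvironment array B2 (no member called lower then). With the tumor pool as replicate block, 2 members were called higher and 8 lower, where 1.65% and 4.73% of all genes were. The higher ones were the bile acid exporter subunit Slc51a (at least 1.34-fold, adjusted p = 0.0307) and the amino acid exchanger Slc7a8 (2.10, adjusted p = 0.0425). Slc7a8 had 8.15 and 8.32 in F0 tumor cells, against 5.0 and 7.26 in the F0 microenvironment, where B2 did not detect it, and leaving out 1 array at a time, with no block, moved its difference over 0.98 to 3.23. The lower ones were Slc22a13 (adjusted p = 0.0198), Slc24a3 (at least 7.65-fold, adjusted p = 0.0276), Slc52a3 (at least 3.48-fold, adjusted p = 0.0282), Slc22a7 (-1.62, adjusted p = 0.0283), Slc16a9 (-2.44, adjusted p = 0.0375), Slc38a9 (at least 2.9-fold, adjusted p = 0.0388), Slc66a2 (-2.04, adjusted p = 0.0429) and Slc35f3 (at least 2.33-fold, adjusted p = 0.0436). Without the 3 arrays that stand apart, 1 F0 microenvironment array is left. The median F0 difference of members was then 0.30, against 0.22 over all genes, where the main fit gave 0.32 and 0.19. Since those 3 were chosen by markers of the fractions, this is a description only. Without F4 tumor array A, 8 were called higher and 10 lower, where 2.63% and 4.98% of all genes were. Leaving out F4 microenvironment array D gave 4 lower and none higher (1.74% and 0.823% of all genes). Leaving out array A there gave 1 and 1 (0.342% higher and 0.722% lower). These F4 arrays are not part of the F0 difference. Leaving 1 of them out changes only the shared estimate of spread, so these calls are no support for the F0 differences.

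All 31 members called in F4 had a difference of the same sign in F0 (100%). Of all genes called in F4, 99% did. Slc24a3 had 4.54 and 4.48 in F0 tumor cells, against 8.14 and 8.07 in the F0 microenvironment (adjusted p = 0.0643). Slc27a3 had 5.36 and 5.37 in F0 tumor cells, against 5.05 and 5.99 in the F0 microenvironment (-0.15, adjusted p = 0.858).

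**Figure D4:**
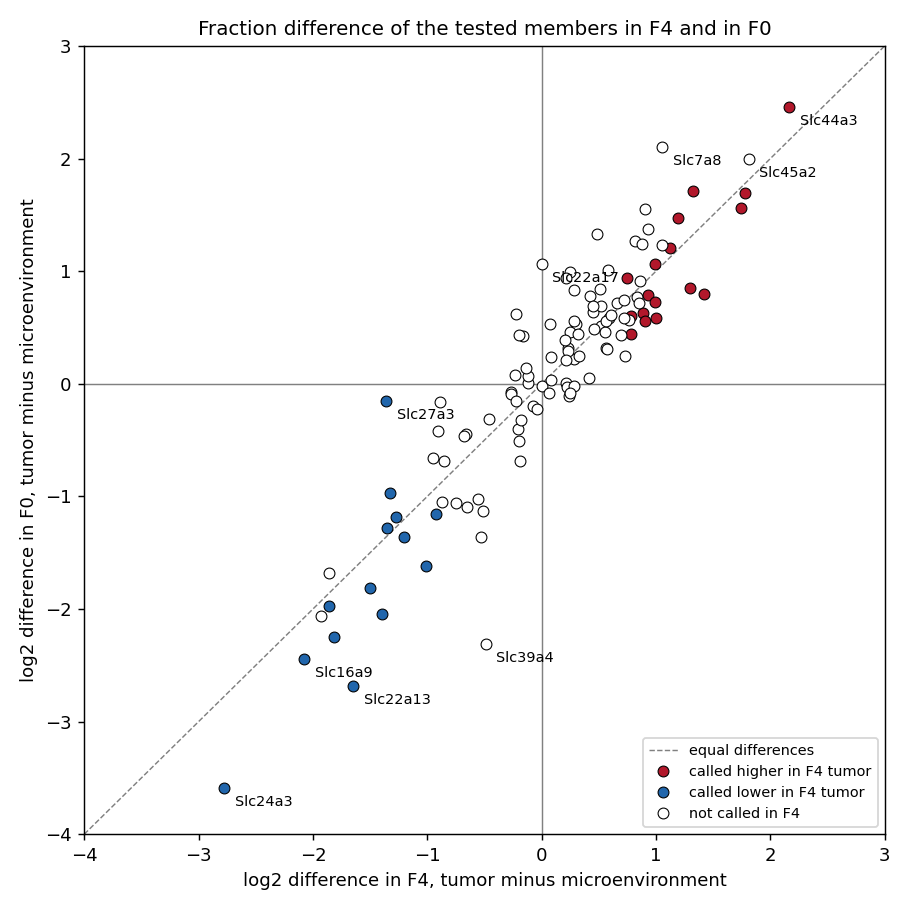
Log2 difference, tumor minus microenvironment, of the 119 tested members in F4 (x axis) and in F0 (y axis), each point a member, red where called higher in F4, blue where called lower and white where not called, with a dashed line of equal differences. All called members have the same sign on both axes, and Slc39a4 lies far from the line at -0.49 in F4 and -2.31 in F0.

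F4 against F0 gave no member called in tumor cells, where 0.0887% of all genes were called, and none in the microenvironment, where 0% were. At an unadjusted p below 0.05 there were 8 members in tumor cells (6.72%, against 2.09% of all genes) and 3 in the microenvironment (2.52%, against 2.44%). In tumor cells 27 members had no overlap between F4 and F0 arrays, 11 higher and 16 lower in F4, where 13.7% of all genes did not. In the microenvironment they did not overlap for 8 members, 5 higher and 3 lower, against 5.27% of all genes. The 2 tumor F0 arrays limit this comparison: the half-width of a 95% interval on a difference was 0.76 at the median over all genes.

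Slc39a4, the zinc importer of the gut, had 7.30, 7.35, 7.42 and 7.48 in F4 tumor cells, against 4.92 and 5.80 in F0 tumor cells (2.03 ± 0.47 SE, adjusted p = 0.288). In the microenvironment it had 8.31, 7.75, 7.57 and 7.88 in F4, against 8.71 and 6.64 in F0 (0.20, adjusted p = 0.999). F0 tumor array B2 did not detect it. The F0 tumor values stand below every other array, and the F4 tumor arrays lie within 0.18 of each other. Of the 12 fits that left out 1 array, 2 called the tumor difference, those without an F0 microenvironment array. Those arrays are not part of the tumor difference, which stayed at 2.03. Leaving 1 of them out takes their spread (8.71 and 6.64) from the shared estimate, so these calls are no support for it.

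Slc12a8, of the chloride cotransporter family and proposed to carry a precursor of NAD, had 5.76, 6.18, 6.32 and 5.79 in F4 tumor cells, against 4.52 and 4.76 in F0 tumor cells. Detection on 4 of 4 F4 arrays stood against none in F0. Its measured means gave a bound of 1.79-fold higher in F4, and it did not pass (adjusted p = 0.118). In the microenvironment it had 5.60, 5.72, 6.07 and 5.68 in F4, against 4.94 and 4.56 in F0 (adjusted p = 0.999), detected on 2 of 4 F4 arrays and no F0 array. F4 arrays lay above F0 arrays in both fractions.

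Slc22a17, a receptor for the iron-binding protein lipocalin-2, had 4.49, 4.66, 4.38 and 4.44 in F4 tumor cells and was detected on none of those arrays, against 5.56 and 6.0 in F0 tumor cells, where both arrays detected it. Its measured means gave a bound of 1.47-fold lower in F4 tumor cells, and it did not pass (adjusted p = 0.118). In the microenvironment it was detected on no array. With the deposited processed values it was called (adjusted p = 0.0273).

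Further members with small p in tumor cells did not pass either. For the nucleotide carrier Slc17a9 the measured means gave a bound of 1.17-fold higher in F4 (adjusted p = 0.716). For Slc7a4, an amino acid carrier family member with no known cargo, the bound was 1.11-fold lower (adjusted p = 0.795). The sodium, potassium and chloride cotransporter Slc12a2 had 8.19, 8.15, 8.51 and 8.93 in F4 tumor cells, against 9.41 and 9.42 in F0 tumor cells (-0.97, adjusted p = 1). In the microenvironment it had 8.67, 7.66, 7.67 and 7.72 in F4, against 8.79 and 9.02 in F0 (-0.98, adjusted p = 0.999), so F4 lay below F0 in both fractions. The iron exporter Slc40a1 had 7.01, 7.29, 7.57 and 7.17 in F4 tumor cells, against 8.01 and 8.48 in F0 (-0.98, adjusted p = 1). Slc1a5 differed by -0.64 in tumor cells and Slc66a2 by 0.84 (adjusted p = 1 each). Slc7a11 had 5.48 to 5.99 in F4 tumor cells, against 4.76 and 4.94 in F0 tumor cells, where it was detected on no array. Its measured means gave a bound of 1.46-fold higher in F4, and it did not pass (adjusted p = 1).

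**Figure D5:**
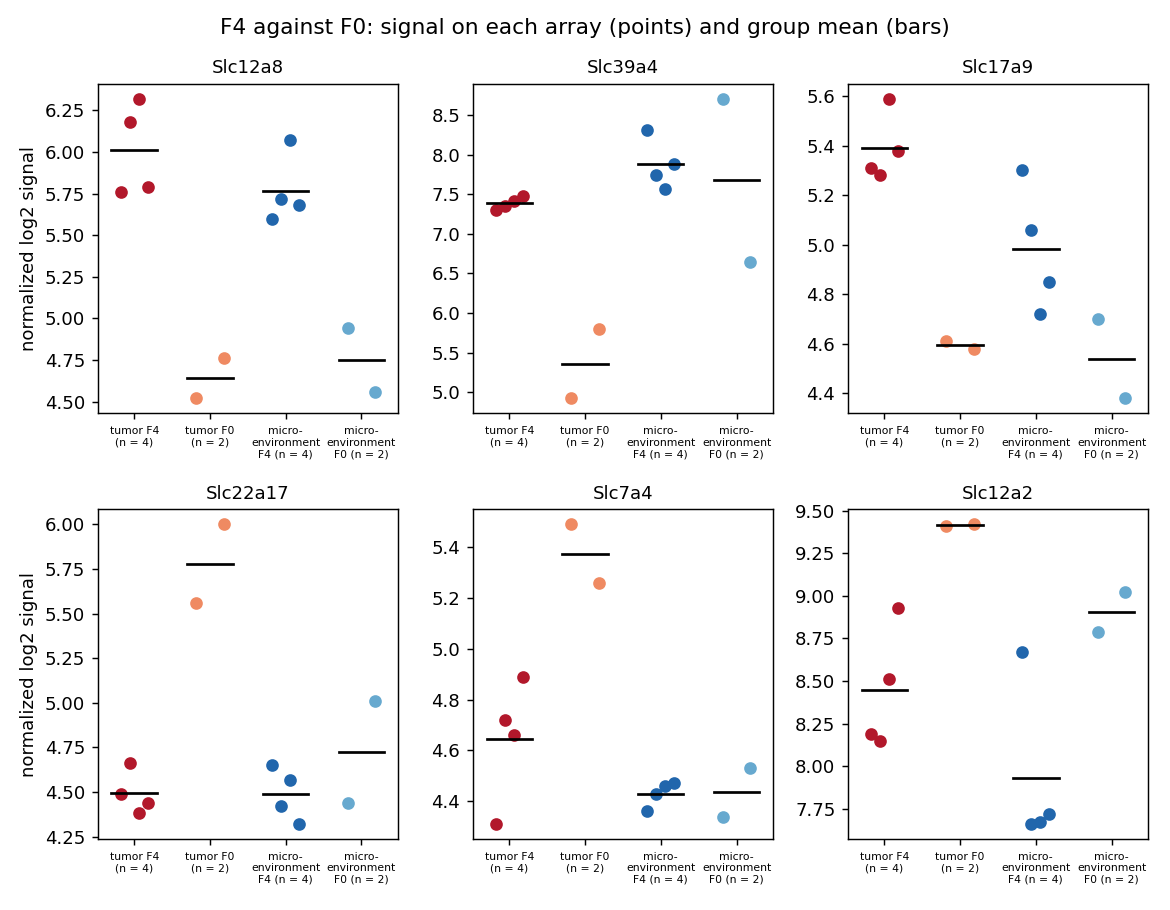
Normalized log2 signal (y axis) of 6 members with small p for F4 against F0 in tumor cells, on each array (points) with group means (bars), in tumor F4, tumor F0, microenvironment F4 and microenvironment F0. Slc39a4 lies at 7.30 to 7.48 on F4 tumor arrays and at 4.92 and 5.80 on F0 tumor arrays; low values such as those of Slc22a17 in F4 are not well above background.

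In the microenvironment, Slc22a13 was lower in F4 without passing the adjusted test, with the F4 and F0 values given above (-0.81, adjusted p = 0.999). The folate carrier Slc19a1 (-0.76), the fatty acid carrier Slc27a3 (0.85), Slc35g1 (0.55), the anion exchanger Slc26a4 (-0.57) and the scaffold Slc9a3r2 (-0.59) were among those with the smallest p in either direction (adjusted p = 0.999 each). Slc17a9, detected on no microenvironment array of either line, and Slc36a1, detected there on F4 array D alone, were also among them and have no measured difference. The change of the fraction difference with the line was tested as an interaction. No member passed, and 0% of all genes did, while 5 members had an unadjusted p below 0.05 (4.2%, against 1.23% of all genes). Those were Slc22a17 (unadjusted p = 0.00883), Slc39a4 (0.0187), Slc7a4 (0.0346), Slc1a5 (0.0458) and Slc22a13 (0.0458), with adjusted p = 1 each. All but Slc39a4 had at least 1 group without detection, so the size of their change has no measured value. The fraction difference of Slc39a4, as tumor minus microenvironment, was -0.49 in F4 and -2.31 in F0. This is a change of 1.82 ± 0.66 (SE), toward a smaller gap in F4. Leaving out each array moved the change over 0.79 to 2.86.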

How the data were processed

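RNA of 12 sorted pools was measured on single-colour Illumina mouse bead arrays. The deposited values are raw probe intensities with a detection p-value per probe, from GenomeStudio per the submitters' processing notes (its version is not given in the sources used here). A further deposited table holds linear processed intensities of unstated normalization and served only as an alternative. Intensities were corrected and normalized with neqc of limma 3.58.1 (R 4.3.3; normexp, offset 16, quantile over 12 arrays). A probe was kept where 2 or more arrays had detection p below 0.01, and the brightest probe stood for a gene, which gave 7894 genes. Probes were named from the platform annotation, with 12090 of 12096 symbols matched to RefSeq through Entrez numbers. A mean per group was fitted over all 12 arrays with limma (residual df 8), and p-values were adjusted over all genes, at 0.05. The number of arrays limits the precision.

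Each pool was sorted into both fractions, so replicate letters pair the arrays. Deviations of paired arrays from their group means correlated at 0.393 in F0 and at 0.113, 0.107, -0.072 and 0.562 in F4. The main fit had no block and left this pairing out. In the block alternative the pool was a fixed block for fractions and a random block for lines (consensus correlation 0.198). The main p-values measure the spread between the arrays of a group, shared over all groups. For fractions, those of the block measure the spread of the differences within pools.

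Alternatives were median scaling, no normexp, detection on every array of a group, no filter, single probes, the block, array weights, the deposited table, only the arrays of a fraction, leaving out 3 arrays that stand apart and leaving out each array. Members and lists were chosen with earlier results of these data known. Named were the 15 largest called members each way in F4, the 10 largest in F0, those called or else the 5 smallest p each way between lines and the 5 smallest in the interaction, the smallest p in F4 of each family with 3 or more tested members, and a list of 45 carriers chosen for their roles, of which 34 were tested. Members first mentioned in sentences on block calls, detection or several probes were named outside this rule, after their values were seen. Promoter sequences are from RefSeq, GRCm38.p6.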

Additional observations from a re-analysis of the deposited data

Results flagged for a closer look

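For 69 named members, each F4 group of 4 arrays was tested by Dixon's criterion. In 21 of these 138 groups (15.2%) 1 value lay apart from the other 3, where chance gives about 1 in 20. Of those values, 14 were on F4 tumor array A. It had the highest leukocyte marker mean of the tumor arrays (11.23) and a mean raw intensity of 250. On that array, values lay above the others for Slc16a9 (7.17, others 4.54 to 4.85), Slc22a13 (5.48, others 4.28 to 4.48), Slc22a7 (7.16, others 6.0 to 6.07), Slc35d1 (6.34, others 5.66 to 5.69), Slc35f3 (5.14, others 4.26 to 4.38), Slc52a3 (5.43, others 4.85 to 4.93), Slc66a2 (7.96, others 6.57 to 6.73), Slc7a7 (6.81, others 6.40 to 6.46) and Slc9a3r2 (6.95, others 6.03 to 6.15). They lay below the others for Slc30a5 (7.41, others 8.98 to 9.05), Slc36a1 (5.53, others 6.19 to 6.31), Slc37a3 (4.89, others 5.77 to 5.93), Slc45a2 (9.17, others 11.50 to 11.58) and Slc7a5 (10.31, others 11.48 to 11.59). For Slc15a2, F4 tumor array C stood at 5.39, against 4.83 to 4.89 on the others.

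In the F4 microenvironment, array D, with the highest melanocyte marker mean of that fraction (9.93), lay above the others for Slc31a1 (8.84, others 8.18 to 8.20), Slc39a14 (4.97, others 4.34 to 4.45), Slc46a1 (4.46, others 4.29 to 4.31), Slc51a (5.0, others 4.41 to 4.49) and Slc6a8 (8.85, others 7.47 to 7.70). Slc39a14, Slc46a1 and Slc51a were detected on none of these arrays. Array A lay above the others for Slc12a2 (8.67, others 7.66 to 7.72). The part of other cells in these values was not tested.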

How the results depend on the processing

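Between the F4 fractions, 17 members were called higher in tumor cells and 14 lower. Median scaling gave 77 and 6, array weights 63 and 34, leaving out the 3 arrays that stand apart 41 and 26, and the replicate block of the pairing 20 and 17. All genes shifted too, from 13.3% higher and 11.2% lower to 67.8% and 5.05% under median scaling. They came to 46.5% and 28.2% with array weights, and to 18.8% and 14.4% with the block. Calls of members were 10 higher and 13 lower without normexp and 9 and 12 with the deposited values, so more were lower than higher there. Over all genes those settings gave 13.3% higher and 9.63% lower, and 9.72% and 10.1%. Leaving out each array in turn gave 0 to 36 higher and 1 to 22 lower. In F0, with 0 higher and 1 lower, median scaling gave 75 and 4, the block 2 and 8, and leaving out the 3 arrays 25 and 20; array weights gave 8 lower, the deposited values called 1 higher, and leaving out each array 0 to 8 higher and 0 to 10 lower. For F4 against F0 in tumor cells, with none called, array weights gave 3 higher (Slc12a8, Slc17a9 and Slc39a4) and 2 lower (Slc22a17 and Slc7a4), the deposited values called 1 lower, and leaving out each array 0 to 1 higher. In that comparison array weights called 0.646% of all genes higher and 0.621% lower. The block changed no call in the comparisons of the lines. Median scaling moved the median of all genes to 1.22 in F4 and 1.68 in F0, and the cause was not tested. It turned the sign in F4 of Slc16a6 (0.12), Slc22a7 (0.16), Slc29a1 (1.0), Slc29a3 (0.41), Slc2a6 (1.24), Slc35d1 (0.24), Slc38a2 (0.48), Slc40a1 (1.07), Slc44a2 (0.25), Slc45a4 (0.29), Slc46a3 (0.03), Slc7a11 (0.54), Slc7a7 (0.82), Slc8b1 (0.14) and Slc9a3r1 (0.89). Signs also turned for Slc7a7 with the deposited table (0.15), for Slc15a2 without the 3 arrays (-0.04) and, between the lines in the microenvironment, for Slc17a9 with the deposited table (-0.69), although no microenvironment array detected it. Leaving out each array moved Slc7a7 over -0.56 to 0.04, Slc7a11 over -0.56 to 0.25, Slc15a2 over -0.08 to 0.35 and, between the lines in the microenvironment, Slc26a4 over -1.16 to 0.02. Over all named members and alternatives, 1557 values kept direction and side of the threshold, 109 newly passed, 190 no longer passed and 24 turned sign. Dim microenvironment arrays limit what can be called absent there.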
